A study of Homo sapiens with 36 samples.

Results

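A498 and 786-O, cell lines grown from human clear cell renal carcinomas, were compared as parental cells. The comparison used every library of parental cells in the series, 18 of 36, chosen by their labels as parental A498 (9 libraries) or parental 786-O (9 libraries). Within each line, 3 libraries came from cells given atezolizumab, 3 from cells given avelumab and 3 from cells given durvalumab, all antibodies against PD-L1. The treatment lasted 24 h, and the labels give the dose as 10 mg/mL. The parental cells had no sunitinib selection, and no library without an antibody was used here, so the levels are those of antibody-treated cells in both lines. The other 18 libraries came from cells selected for growth in sunitinib. Of these, the 9 of the sunitinib-resistant 786-O cells, selected at 4 µM, serve below as a second 786-O batch, which is also another cell state. The 9 labelled as resistant A498, selected at 2 µM, entered only an alternative fit over all libraries. GSTP1 and HIF1A, which set the parental lines apart, stood in those 9 libraries near their 786-O level and not at that of the A498 label. The 9 averaged 490 CPM of GSTP1 and 8.99 CPM of HIF1A, where parental A498 averaged 0.33 and 294 CPM of these genes and parental 786-O 348 and 9.36 CPM.

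The line and the batch cannot be told apart: all A498 parental libraries carry one batch label, and all 786-O parental libraries carry another. Each line is also a single tumour's cells in culture, so the comparison is between these lines and not between kinds of tumour. Whether replicate libraries were grown as separate cultures is not stated in the labels, so a p-value reflects the spread among these libraries alone, and that spread may be technical.

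Clear cell renal carcinoma arises from the tubule epithelium of the kidney and is known for the loss of VHL, the part of a ubiquitin ligase that marks hypoxia-inducible factors (HIF) for destruction in the presence of oxygen. Without VHL the HIF alpha subunits persist, and genes of glucose uptake, glycolysis, vessel growth and lipid storage are switched on. Another stress pathway runs through NRF2, a transcription factor held down by KEAP1, whose targets make and use glutathione and NADPH and reduce quinones and aldehydes. Interferon signalling acts through a transcription factor complex that holds STAT2 and IRF9 and binds the interferon-stimulated response element.

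NRF2 binds antioxidant response elements, and the core TGACNNNGC was searched on both strands from 250 bases before to 50 bases after the start of each gene in RefSeq promoters of GRCh38.p14. It was found in 3702 of 27305 promoters (13.6%) and in 7 of the 23 promoters (30.4%) that matched the list of 35 NRF2 target genes. The interferon-stimulated response element, searched on both strands as GAAA followed after any 2 bases by GAAA, was found in 996 of the 27305 promoters (3.65%) and in 21 of the 35 promoters (60%) that matched the list of 45 interferon response genes. A match describes the letters and does not show a bound site. The promoters below are shown because both lists stood higher in A498 (values further on), while ISG15 and BST2 of the interferon list hold the same letters and did not. Capitals mark each match in the printed stretch, on either strand, and matches can overlap.
GCLM, chr1:93909431-93909489, minus strand: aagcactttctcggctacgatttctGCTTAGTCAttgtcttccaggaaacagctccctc
TXNRD1, chr12:104215655-104215713, plus strand: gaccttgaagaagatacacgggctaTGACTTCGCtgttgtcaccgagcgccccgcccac
CBR1, chr21:36069840-36069898, plus strand: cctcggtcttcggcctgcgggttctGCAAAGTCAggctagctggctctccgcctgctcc
IFI27, chr14:94110603-94110662, plus strand: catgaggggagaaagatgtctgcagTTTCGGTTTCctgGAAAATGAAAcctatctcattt
OAS3, chr12:112938306-112938365, plus strand: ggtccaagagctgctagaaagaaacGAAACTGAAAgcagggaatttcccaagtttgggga
ISG15, chr1:1013359-1013418, plus strand: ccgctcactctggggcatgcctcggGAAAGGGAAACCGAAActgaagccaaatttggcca
BST2, chr19:17405726-17405785, minus strand: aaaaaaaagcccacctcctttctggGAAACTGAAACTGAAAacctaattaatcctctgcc
The printed match lies on the opposite strand in GCLM and CBR1, IFI27 has a match on each strand, and ISG15 and BST2 have overlapping matches. TXNRD1 and OAS3 hold a further match outside the stretch shown. Of the matched promoters of genes called higher in A498, 6 of 17 in the NRF2 list and 16 of 28 in the interferon list held the motif.

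Total counts ran from 26160910 to 49099068 per library in A498 and from 32869829 to 58122896 in 786-O. Mitochondrially encoded genes took 2.68% ± 0.16 of counts in A498 and 1.81% ± 0.198 in 786-O, and ribosomal protein genes took 4.22% ± 0.122 in A498 and 5.03% ± 0.123 in 786-O (SD, n = 9 each). Both shares differed without overlap (2-sided exact permutation test, p = 4.11e-05, adjusted p = 4.11e-05 over both, the smallest p that 9 against 9 can give). The first principal component held 93.7% of the variance and separated the lines, and the second held 0.69%. Levels are given as CPM, counts scaled to the total of a library. Where 3 levels are given for a line, they are the lowest, the median and the highest of its 9 libraries. Differences are log2 of A498 over 786-O, with their standard error (SE), and are positive where A498 was higher.

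The lines differed in most genes that could be tested. Of 19703 genes, 17188 (87.2%) passed an adjusted p of 0.05, with 8734 higher and 8454 lower in A498. A gene is called here when it also differs at least 2-fold: 6215 genes (31.5%) were called, 4115 (20.9%) higher and 2100 (10.7%) lower in A498. At least 16-fold differences were called for 1214 genes higher and 447 lower in A498. For 12714 genes (64.5%), the 9 libraries of A498 and the 9 of 786-O did not overlap. For genes named below for the size of their difference, a lack of overlap follows from that choice and adds no support. The median log2 difference over all tested genes was 0.01 and the median size was 0.58, so counts of list members are read below against these shares. Protein coding genes were called in 29.8% of 13901 cases, against 50.5% of 1095 lincRNA genes.

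**Figure D1:**
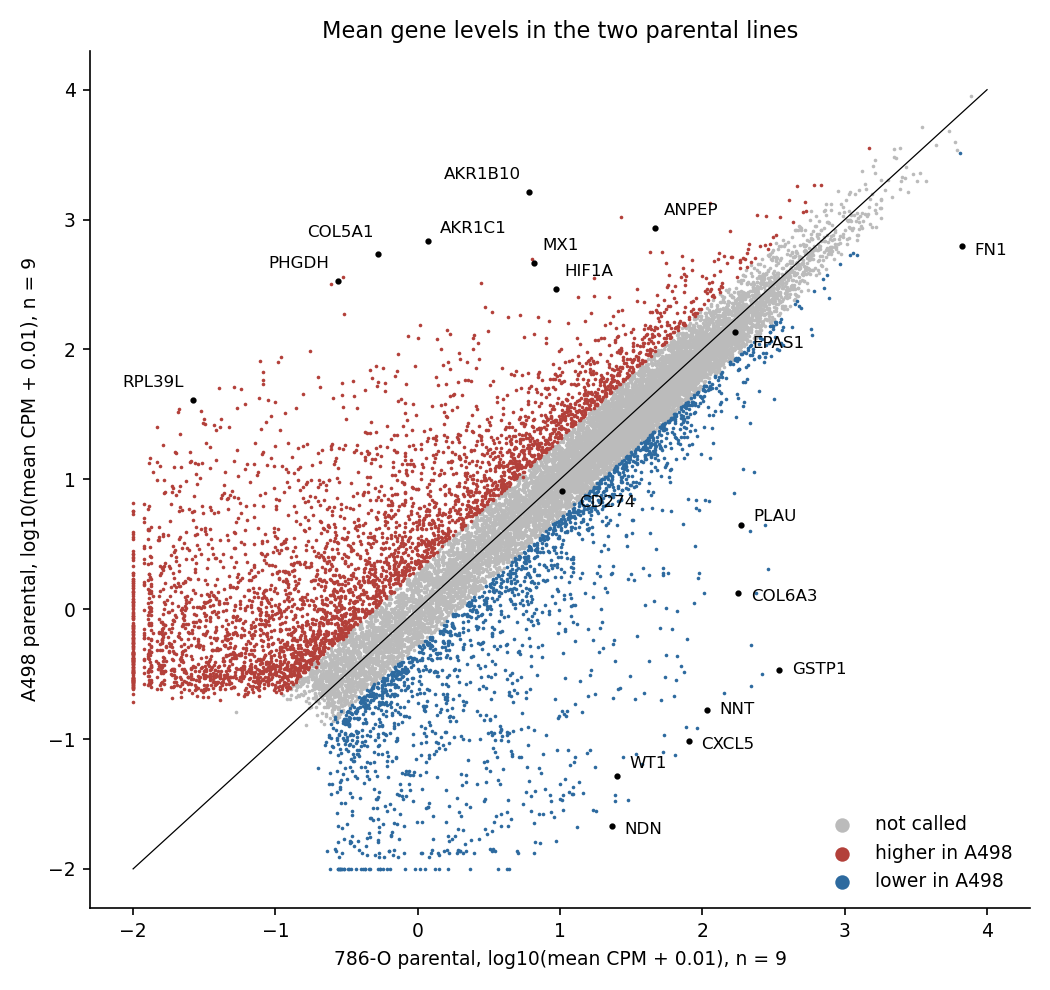
Mean level of each tested gene in parental A498 (vertical axis) and parental 786-O (horizontal axis), as log10(CPM + 0.01), each point the mean of 9 libraries per line. Red points are the 4115 genes called higher in A498 and blue points the 2100 called lower; AKR1B10, PHGDH and COL5A1 lie far above the diagonal and FN1, GSTP1 and NNT far below it.

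Among genes that passed under every antibody and reached 5 CPM in the higher line, those with the highest and lowest differences were nearly silent in the other line. ZFP42, a transcription factor of pluripotent cells also called REX1, stood at 30.9, 33.5 and 35.1 CPM in A498, against 0, 0 and 0.0285 CPM in 786-O. POPDC3, a popeye domain protein of striated muscle, held 24.1, 25.6 and 26.4 CPM in A498, against 0, 0 and 0.0256 CPM in 786-O, a count ratio of 4480 (exact 95% interval 1240 to 37000). ZFP42 and POPDC3 were above 24 CPM in every A498 library and at 0 in at least 5 of the 9 786-O libraries. WNK2, a kinase gene, had 0 counts in 786-O and 5.83, 6.38 and 7.699 CPM in A498, at least 778-fold higher at a floor of 3 counts over the 9 libraries. Further genes near 0 in 786-O were SOX11, a developmental transcription factor, at 16.8, 18.2 and 19.7 CPM in A498 with a count ratio of 3220 (exact 95% interval 892 to 26600), and ADAM23, a membrane protein of the ADAM family, at 11.8, 13.4 and 15.3 CPM in A498 with a count ratio of 4670 (exact 95% interval 838 to 185000). NFATC1, a calcium-regulated transcription factor, reached 10.6, 11.2 and 12.5 CPM in A498 with a count ratio of 2010 (exact 95% interval 557 to 16600). RPL39L, a ribosomal protein paralogue with near copies elsewhere in the genome, and LY75, which shares 57% of its exonic length with a read-through gene, also ranked there and are uncertain.

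In the other direction, NDN, an imprinted gene of the Prader-Willi region that encodes necdin, held 0, 0 and 0.0652 CPM in A498, against 21.5, 23.1 and 24.9 CPM in 786-O, with a count ratio of 2330 (exact 95% interval 799 to 11300) for 786-O over A498. KCNJ15, an inward rectifier potassium channel gene, held 0, 0 and 0.0611 CPM in A498, against 15.6, 17.9 and 19.5 CPM in 786-O. GYPC, the gene of the membrane protein glycophorin C, stood at 0.0587, 0.0854 and 0.261 CPM in A498, against 85.8, 91.4 and 96.4 CPM in 786-O. None of these genes, chosen for the size of their difference, overlapped between the lines. SLC17A9, a vesicular nucleotide transporter gene, was at 0.0382, 0.261 and 0.323 CPM in A498, against 207, 219 and 227 CPM in 786-O (log2 difference -9.78 ± 0.050 SE, adjusted p = 4.1e-58). Of the 12 lowest genes, 4 encode zinc finger proteins on chromosome 19, ZFP28, ZNF71, ZNF69 and ZNF649, which are taken up with the map by position below.

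Ranked by mean CPM gained among genes at least 4-fold apart, the first 6 in A498 were AKR1B10, ALDH1A1, PXDN, NQO1, ANPEP and AKR1C1, of which AKR1B10, ALDH1A1 and AKR1C1 are enzymes of aldehyde and ketone metabolism. AKR1B10 (ENSG00000198074.10, chromosome 7, 134527592 to 134541408 on GRCh38, plus strand), an aldo-keto reductase that reduces retinal and other aldehydes, stood at 1453, 1549 and 2029.9 CPM in A498, against 5.37, 5.87 and 7.06 CPM in 786-O. ALDH1A1, which oxidises retinal to retinoic acid, stood at 1122, 1255 and 1766 CPM in A498, against 93.1, 118 and 127 CPM in 786-O. PXDN, the peroxidasin that crosslinks collagen IV, stood at 984, 1042 and 1096 CPM in A498, against 24.7, 26.3 and 29.2 CPM in 786-O. None of the 3, ranked by the size of that gain, overlapped between the lines. On the other side FN1, fibronectin, took 521, 634 and 695 CPM in A498, against 5451, 6618 and 7778 CPM in 786-O (log2 difference -3.44 ± 0.072 SE, adjusted p = 6.72e-15). CCN1, a matricellular protein gene, stood at 102, 133 and 161 CPM in A498, against 547, 598 and 625 CPM in 786-O. THBS1, thrombospondin 1, was at 124, 146 and 155 CPM in A498, against 501, 583 and 615 CPM in 786-O. S100A16, a calcium-binding protein gene, stood at 39.7, 40.99 and 42.8 CPM in A498, against 302, 318 and 333 CPM in 786-O. All 4, chosen by the same kind of ranking, were lower in every A498 library than in every 786-O library.

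**Figure D2:**
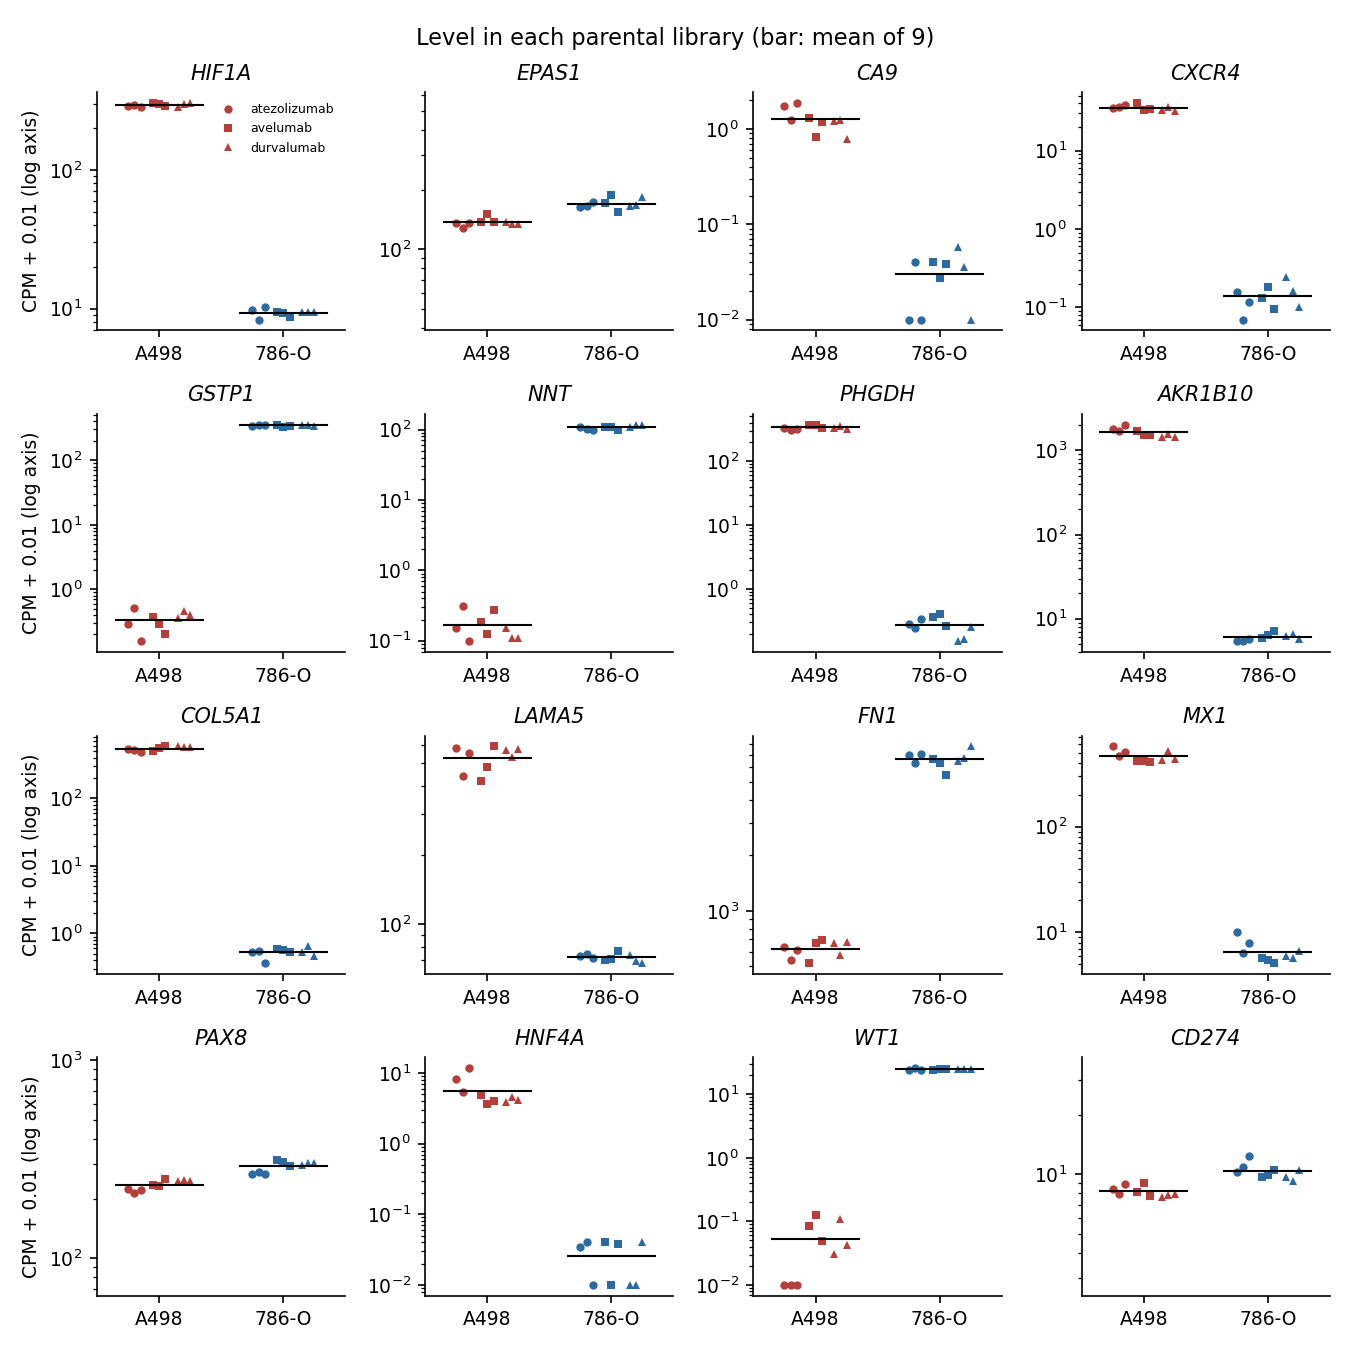
Level of 16 genes in each of the 18 libraries, CPM + 0.01 on a log axis, with A498 left and 786-O right, point shape for the antibody and a bar at the mean of 9 libraries. HIF1A, PHGDH, AKR1B10, COL5A1, LAMA5 and MX1 are higher in A498, GSTP1, NNT, FN1 and WT1 are lower, and EPAS1, PAX8 and CD274 differ by less than 2-fold.

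The oxygen-sensing list of 16 genes, 15 of them tested, had 2 members called higher and 1 lower in A498, with a median of -0.09. That is 20% called, against 31.5% of all genes tested. The count called higher was 1 with the resistant 786-O libraries in place of the parental ones. HIF1A (ENSG00000100644.17, chromosome 14, 61695513 to 61748259 on GRCh38, plus strand), the alpha subunit HIF-1 alpha, stood at 285, 295 and 305 CPM in A498, against 8.33, 9.46 and 10.3 CPM in 786-O (log2 difference 4.94 ± 0.028 SE, adjusted p = 1.94e-56). EPAS1, which encodes HIF-2 alpha, stood at 129, 136 and 150 CPM in A498, against 154, 166 and 188 CPM in 786-O (log2 difference -0.34 ± 0.031 SE, adjusted p = 1.43e-09). Per kilobase of exonic length, HIF1A reached a mean of 57.1 CPM in A498, against 1.82 CPM in 786-O. On the same scale EPAS1 reached a mean of 18.8 CPM in A498, against 23.3 CPM in 786-O, so HIF1A was the higher of the pair in A498 and EPAS1 in 786-O. In the sunitinib-resistant 786-O libraries, another batch and another cell state, HIF1A averaged 8.71 CPM and EPAS1 243 CPM. VHL transcripts stood at 14.6, 17.3 and 19.2 CPM in A498, against 22.6, 25.1 and 26.5 CPM in 786-O (log2 difference -0.56 ± 0.035 SE, adjusted p = 1e-18). EGLN3, a prolyl hydroxylase that marks HIF alpha for VHL and is itself a HIF target, stood at 97.7, 112 and 135 CPM in A498, against 38.9, 42.01 and 43.2 CPM in 786-O. BHLHE41, a repressor of the circadian clock, was at 8.65, 9.48 and 10.6 CPM in A498, against 24.8, 27.6 and 29 CPM in 786-O. EGLN3 was called higher and BHLHE41 lower in A498.

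HIF targets moved in both directions, as did the tested genes as a whole. Of 25 glycolysis and mitophagy targets, 2 were called higher and 4 lower in A498, 24% against 31.5% of all genes tested. At any size, 17 of the 25 passed lower (median -0.33). The count called lower was 2 with the resistant 786-O libraries. SLC2A1, the glucose transporter GLUT1, stood at 802, 820.2 and 859 CPM in A498, against 923, 998 and 1048 CPM in 786-O. ENO1, the main enolase, which has processed pseudogenes, stood at 1897, 1990.1 and 2009.9 CPM in A498, against 3569.5, 3689 and 3834 CPM in 786-O. ENO2, the neuronal enolase, stood at 6.08, 7.03 and 7.66 CPM in A498, against 83.5, 90.03 and 93.95 CPM in 786-O (log2 difference -3.73 ± 0.031 SE, adjusted p = 5.06e-51). AK4, a mitochondrial adenylate kinase, was at 12.7, 14.1 and 18.9 CPM in A498, against 107, 114 and 120 CPM in 786-O. ALDOC, aldolase C, went the other way at 26.8, 28.6 and 33.1 CPM in A498, against 2.77, 3.16 and 3.22 CPM in 786-O, and has 10.1% of its exonic length in common with a neighbour. CA9, carbonic anhydrase IX and a widely used marker of clear cell tumours, was low in both lines at 0.783, 1.24 and 1.88 CPM in A498, against 0, 0.0256 and 0.0473 CPM in 786-O, with 38.5% of its exonic length shared with ARHGEF39. Of the 24 tested growth, vessel and matrix targets, 7 were called higher and 4 lower (45.8% called, median -0.06). CXCR4, the receptor of the chemokine CXCL12, stood at 32.2, 35.3 and 40.8 CPM in A498, against 0.0599, 0.1204 and 0.236 CPM in 786-O (log2 difference 7.98 ± 0.090 SE, adjusted p = 4.18e-39). INHBB, an activin subunit, was at 136, 145 and 156 CPM in A498, against 37.2, 38.6 and 42.2 CPM in 786-O. VEGFA stood at 228, 263 and 281 CPM in A498, against 255, 270 and 300.2 CPM in 786-O, where the lines overlapped (log2 difference -0.101 ± 0.025 SE, adjusted p = 0.000481), and this small difference did not pass among genes of at least 1 CPM in every library of a line (-0.05, adjusted p = 0.0611) and turned to 0.263 with the resistant 786-O libraries. CCND1, cyclin D1, stood at 211, 226 and 230.2 CPM in A498, against 413, 453 and 477 CPM in 786-O; it shares 10.3% of its exonic length with LTO1.

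NRF2 targets were higher in A498 almost throughout. Of 35 targets, all tested, 25 were called higher and none lower, against 20.9% and 10.7% of all genes, and the median log2 difference was 1.75 against 0.01. PRDX1, a peroxiredoxin, was the only one to pass lower, and the other 34 passed higher. Against the resistant 786-O libraries, 22 were called higher and none lower. The aldo-keto reductases led. AKR1C1 stood at 604, 669 and 801 CPM in A498, against 0.736, 1.09 and 1.497 CPM in 786-O (log2 difference 9.18 ± 0.067 SE, adjusted p = 5.87e-23). AKR1C2 was at 268, 309 and 415 CPM in A498, against 0.0899, 0.2301 and 0.413 CPM in 786-O (log2 difference 10.28 ± 0.13 SE, adjusted p = 1.79e-17). AKR1C3 was at 439.8, 491 and 596 CPM in A498, against 5.25, 6.22 and 8.06 CPM in 786-O (log2 difference 6.25 ± 0.062 SE, adjusted p = 1.54e-19). These genes are near copies of each other, so reads may have been split between them. NQO1, the quinone reductase, stood at 1040.1, 1084 and 1163 CPM in A498, against 237, 243 and 251 CPM in 786-O and overlaps a neighbouring gene over 17.7% of its exonic length. TXNRD1, thioredoxin reductase, stood at 1781, 1829.7 and 1955 CPM in A498, against 590.1, 615 and 624 CPM in 786-O (log2 difference 1.57 ± 0.020 SE, adjusted p = 3.22e-44). HMOX1, which breaks down haem, was at 497, 566 and 597 CPM in A498, against 46.8, 50.9 and 58.3 CPM in 786-O (log2 difference 3.39 ± 0.026 SE, adjusted p = 9.59e-49). SLC7A11, the cystine importer, stood at 223, 237 and 271 CPM in A498, against 46.1, 51.4 and 69.6 CPM in 786-O. No regulator of the pathway reached 2-fold: 6 of 8 passed higher and 2 lower, with NFE2L2, which encodes NRF2, at 191, 198 and 201 CPM in A498, against 120.1, 123 and 131 CPM in 786-O. KEAP1 was at 139.5, 146 and 149 CPM in A498, against 98.9, 106 and 114 CPM in 786-O. NFE2L2 overlaps a neighbouring gene over 20.9% of its exonic length.

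**Figure D3:**
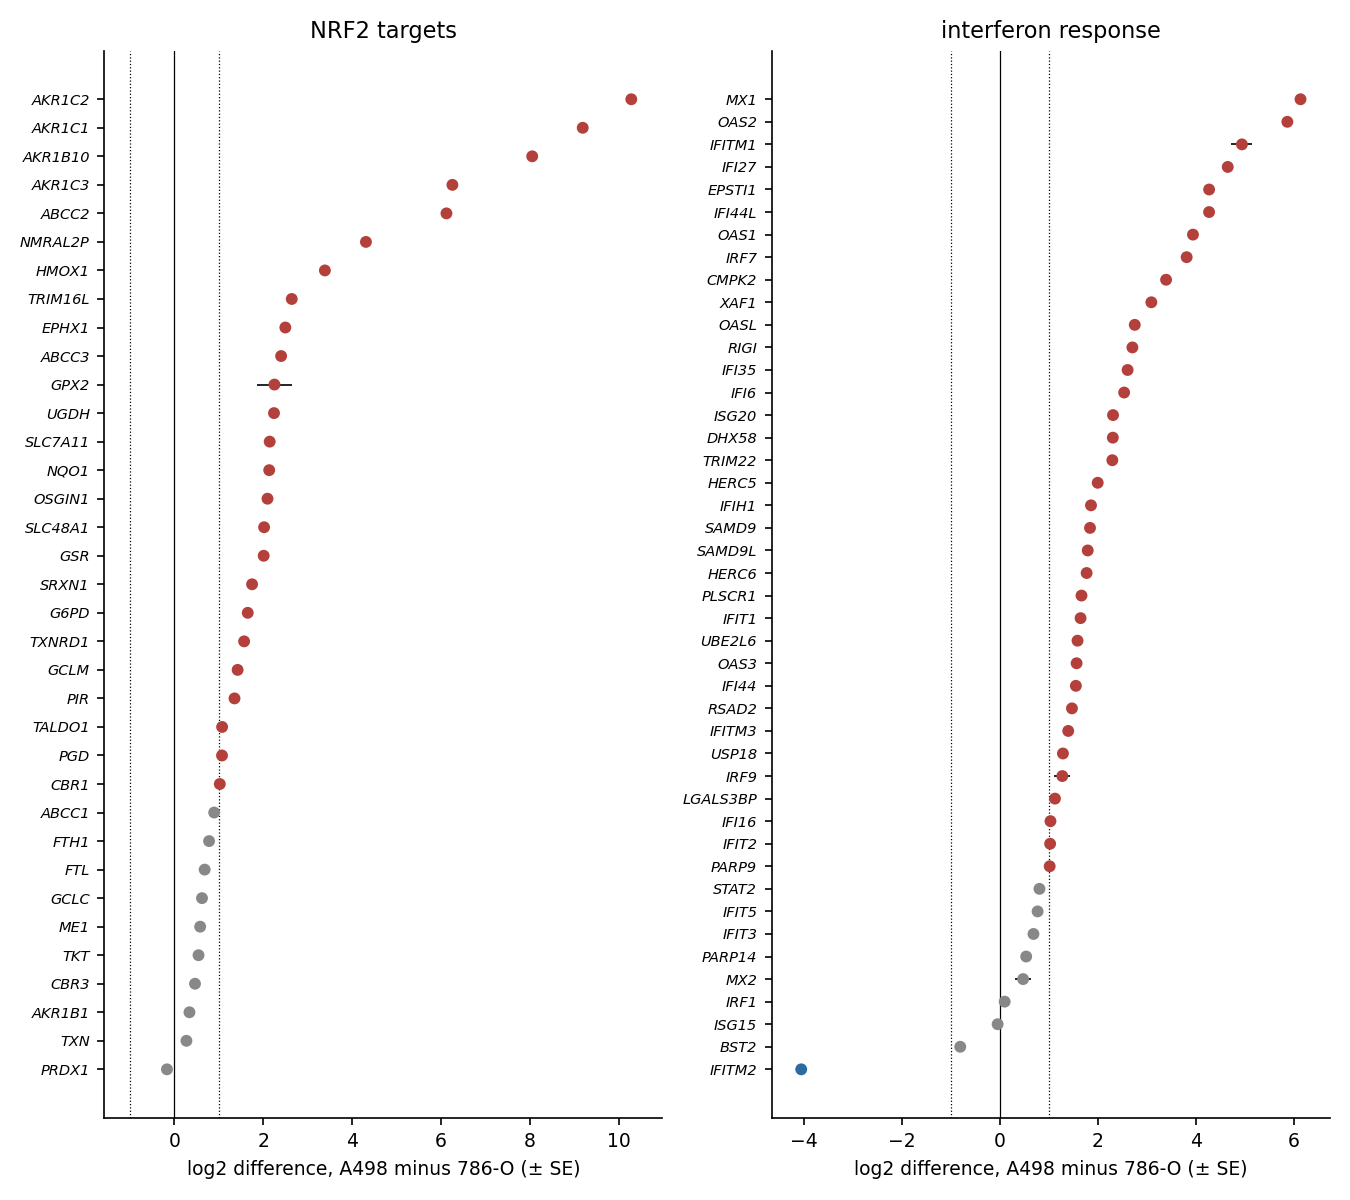
Log2 difference, A498 minus 786-O, with its SE, for NRF2 targets (left) and interferon response genes (right); coloured points are called and grey points are not, and dotted lines mark 2-fold. AKR1C2, AKR1C1 and AKR1B10 lead the first list, and MX1 and OAS2 the second, with IFITM2 alone called lower between the parental lines.

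Glutathione transferases and NADPH enzymes did not move as one. Of 14 tested transferases, 8 were called higher and 2 lower in A498. GSTP1 (ENSG00000084207.18, chromosome 11, 67583595 to 67586656 on GRCh38, plus strand), the pi-class transferase, was at 0.147, 0.346 and 0.501 CPM in A498, against 332, 349.5 and 357 CPM in 786-O (log2 difference -10.07 ± 0.050 SE, adjusted p = 8.39e-56). The lines did not overlap, and the resistant 786-O libraries held a mean of 470.1 CPM. GSTM1, the mu-class enzyme that many people lack, was at 21.1, 22.1 and 23.3 CPM in A498, against 0, 0 and 0.0709 CPM in 786-O, but shares 38.3% of its exonic length with GSTM2 and has near copies. GSTM4 was at 45.5, 50.97 and 52.6 CPM in A498, against 6.88, 8.34 and 9.42 CPM in 786-O. Among the 12 tested NADPH enzymes, 4 were called higher and 3 lower, against 1 higher and 2 lower with the resistant 786-O libraries. NNT (ENSG00000112992.18, chromosome 5, 43602692 to 43707405 on GRCh38, plus strand), the inner mitochondrial membrane enzyme that makes NADPH from NADH, was at 0.08803, 0.141 and 0.3005 CPM in A498, against 98.3, 108 and 118 CPM in 786-O (log2 difference -9.44 ± 0.062 SE, adjusted p = 2.64e-54), and the resistant 786-O libraries held 200 CPM. ME3, mitochondrial malic enzyme, was at 0, 0.0854 and 0.204 CPM in A498, against 2.89, 3.65 and 4.04 CPM in 786-O. ALDH1L2, a mitochondrial folate enzyme that yields NADPH, was at 66.99, 71.3 and 77.6 CPM in A498, against 1.59, 2.53 and 3.19 CPM in 786-O. IDH1, the cytosolic isocitrate dehydrogenase, was at 304, 323 and 356 CPM in A498, against 101, 114 and 122 CPM in 786-O. Thus NNT and ME3 were lower and ALDH1L2 and IDH1 higher in all A498 libraries.

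Serine synthesis differed at its first step and, less widely, at its last. PHGDH, the first enzyme of that pathway, was at 309, 334 and 372 CPM in A498, against 0.142, 0.256 and 0.396 CPM in 786-O (log2 difference 10.31 ± 0.050 SE, adjusted p = 1.55e-56), and the resistant 786-O libraries held 0.912 CPM. PSPH, its last enzyme, was at 148, 158 and 176 CPM in A498, against 49.8, 54.4 and 67.6 CPM in 786-O. Of the 25 tested genes of glutamine and amino acid use, 5 were called higher and 1 lower in A498 (median 0.16). That is 24% called, against 31.5% of all genes tested. Among those called were SLC7A11, which the NRF2 list holds too, and ASNS, which overlaps a neighbouring gene over 44.6% of its exonic length. Lipid genes gave 4 called higher and 3 lower of 29 (median 0.12), 24.1% called and so below the 31.5% of all genes tested. With the resistant 786-O libraries, 1 was called higher and 7 lower. SCD, the stearoyl-CoA desaturase, was at 1280.5, 1435 and 1707 CPM in A498, against 309, 429 and 488 CPM in 786-O (log2 difference 1.803 ± 0.055 SE, adjusted p = 5.07e-13). PLIN2, the coat protein of lipid droplets, was at 478, 500.5 and 603 CPM in A498, against 149, 157 and 168 CPM in 786-O (log2 difference 1.68 ± 0.034 SE, adjusted p = 2.6e-19). HILPDA, a HIF target that inhibits lipolysis, was at 4.47, 5.48 and 6.38 CPM in A498, against 17.8, 18.7 and 19.5 CPM in 786-O and overlaps a neighbouring gene over 13.2% of its exonic length.

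**Figure D4:**
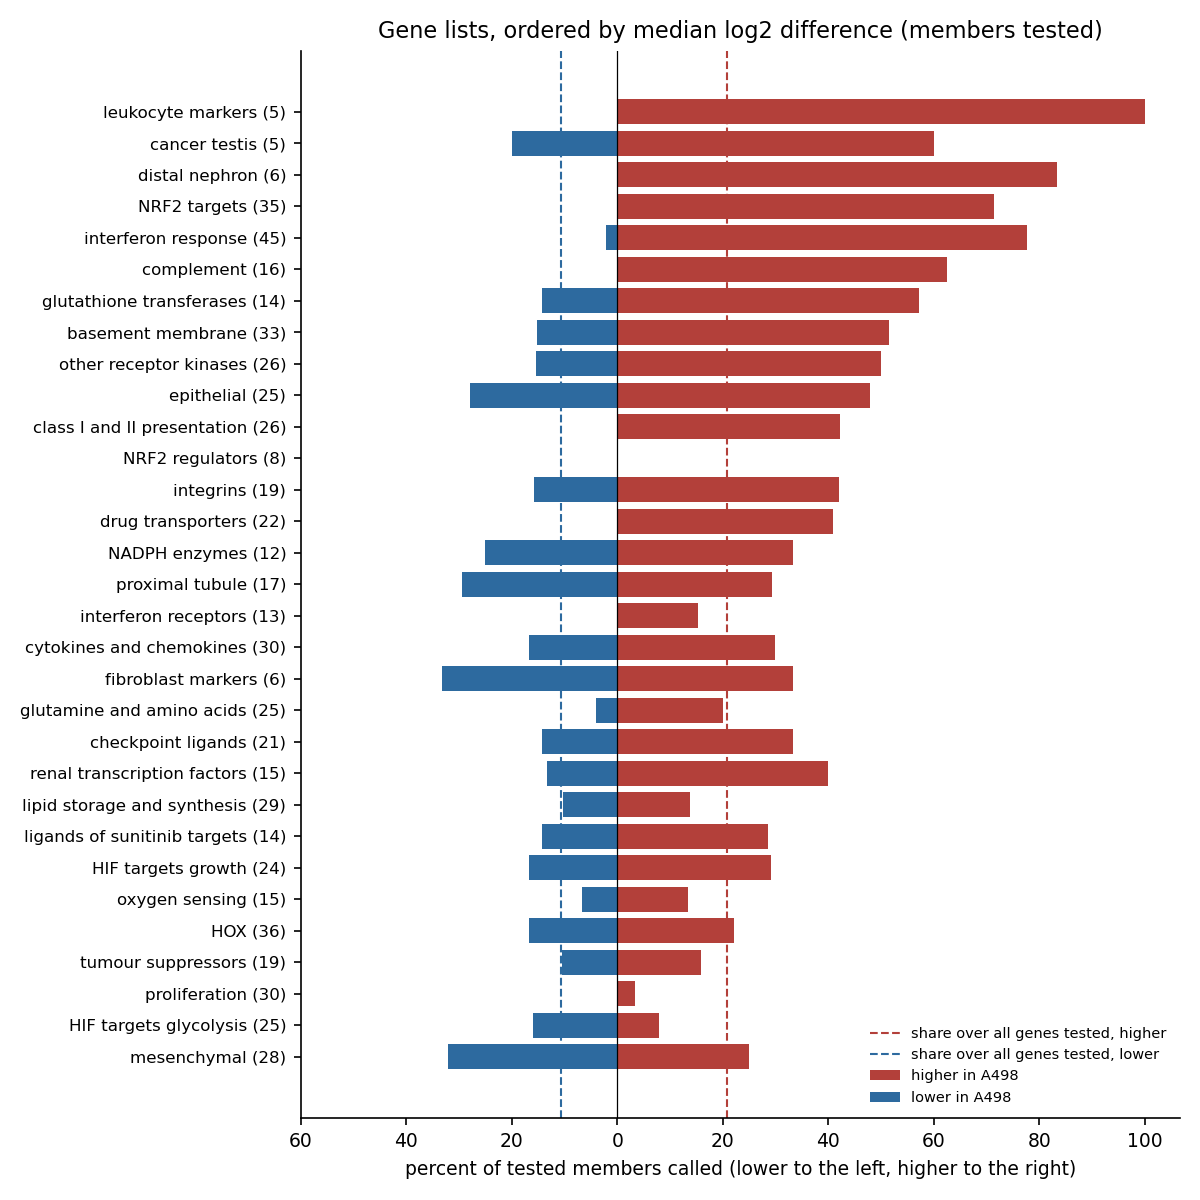
Percent of the tested members of gene lists that were called lower (left, blue) or higher (right, red) in A498, with the number tested in brackets and the lists ordered by their median log2 difference; dashed lines mark 10.7% and 20.9%, the shares over all 19703 genes. NRF2 targets (25 of 35) and interferon response genes (35 of 45) reach farthest to the right among lists of at least 30 tested members.

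Renal identity factors were kept in part by both lines. PAX8, a lineage factor of the renal tubule, was at 214, 234 and 250.1 CPM in A498, against 266, 296 and 312 CPM in 786-O (log2 difference -0.34 ± 0.019 SE, adjusted p = 5.26e-20). PAX8 was present in all 18 libraries, and its difference turned to 0.074 with the resistant 786-O libraries in place of the parental ones. PAX2, its relative, was at 14.1, 15.7 and 17.6 CPM in A498, against 12.04, 16.3 and 18.3 CPM in 786-O and did not pass (log2 difference -0.05 ± 0.039 SE, adjusted p = 0.258), but differed by -0.798 with the resistant 786-O libraries (edgeR, adjusted p = 1.18e-18). LHX1, a factor of the early nephron, was at 40.8, 46.4 and 52.9 CPM in A498, against 21.8, 23.7 and 26.3 CPM in 786-O. WT1, a factor of nephron progenitors and podocytes, was at 0, 0.0326 and 0.114 CPM in A498, against 23.9, 25.03 and 25.98 CPM in 786-O (log2 difference -10.05 ± 0.11 SE, adjusted p = 4.23e-45). WT1 was thus all but absent from A498. SIM1, a bHLH-PAS transcription factor, was at 0.0326, 0.0765 and 0.211 CPM in A498, against 2.88, 3.86 and 4.99 CPM in 786-O. HNF4A, a proximal tubule factor, was at 3.67, 4.53 and 11.8 CPM in A498, against 0, 0.0245 and 0.0304 CPM in 786-O (log2 difference 8.25 ± 0.36 SE, adjusted p = 5.18e-12), and SIX2, which keeps nephron progenitors, had a count ratio of 1060 (exact 95% interval 190 to 41900) with 2.37, 3.05 and 3.69 CPM in A498. In all, 6 of 15 tested factors were called higher and 2 lower. Of 17 tested proximal tubule genes, 5 were called in each direction. ANPEP, aminopeptidase N of the brush border, was at 772, 885 and 948 CPM in A498, against 45.1, 46 and 49.6 CPM in 786-O (log2 difference 4.18 ± 0.025 SE, adjusted p = 8.16e-56). DPP4, another brush border peptidase, was at 198, 213 and 225 CPM in A498, against 69.2, 75.2 and 82.9 CPM in 786-O. MME, neprilysin, was at 5.09, 5.54 and 7.101 CPM in A498, against 15.2, 16.4 and 17.7 CPM in 786-O. ENPEP, aminopeptidase A, was at 13.02, 14.5 and 15.7 CPM in A498, against 39.99, 48.7 and 52.8 CPM in 786-O. ANPEP and DPP4 were higher and MME and ENPEP lower in every A498 library, and ENPEP turned to 0.105 with the resistant 786-O libraries. Of the 28 listed proximal tubule genes, 11 did not pass the filter on low counts, none of them above 0.359 CPM in any of the 18 libraries, and neither did 10 of the 16 distal nephron genes. KRT7, a keratin of the collecting duct, was at 8.32, 9.16 and 9.71 CPM in A498, against 0.481, 0.767 and 1.197 CPM in 786-O.

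Junction and keratin genes split between the lines. Among 25 tested epithelial genes, 12 were called higher and 7 lower in A498. DSP, desmoplakin, was at 38.7, 48.3 and 53.99 CPM in A498, against 0.473, 0.539 and 0.7603 CPM in 786-O (log2 difference 6.34 ± 0.077 SE, adjusted p = 3.21e-28). JUP, plakoglobin, was at 75.7, 84.5 and 89.3 CPM in A498, against 2.29, 2.58 and 3.24 CPM in 786-O (log2 difference 4.95 ± 0.036 SE, adjusted p = 7.79e-53). KRT19 was at 10.3, 11.9 and 12.96 CPM in A498, against 175, 195 and 208 CPM in 786-O (log2 difference -4.04 ± 0.030 SE, adjusted p = 2.66e-51). EPCAM was at 0.267, 0.381 and 0.714 CPM in A498, against 4.27, 5.26 and 5.96 CPM in 786-O. SPINT1, an inhibitor of surface proteases, was at 0.1002, 0.244 and 0.326 CPM in A498, against 5.17, 5.84 and 6.62 CPM in 786-O. DSP and JUP, both of the desmosome, were thus higher in A498, whereas KRT19, EPCAM and SPINT1 were lower. Of 28 tested mesenchymal genes, 7 were called higher and 9 lower (median -0.45). VIM, vimentin, was at 3137, 3480.3 and 3611 CPM in A498, against 5819, 6156 and 6313 CPM in 786-O and shares 24.4% of its exonic length with VIM-AS1. CDH2, N-cadherin, was at 215, 232 and 239.6 CPM in A498, against 297, 312 and 319 CPM in 786-O. MMP2, a gelatinase, was at 0.645, 0.911 and 1.49 CPM in A498, against 53.4, 54.8 and 58.02 CPM in 786-O (log2 difference -5.83 ± 0.061 SE, adjusted p = 2.65e-37). PLAU, urokinase, was at 3.36, 4.51 and 4.99 CPM in A498, against 177, 184 and 203 CPM in 786-O, with 31.1% of its exonic length shared with C10orf55. POSTN, periostin, had a count ratio of 752 (exact 95% interval 257 to 3650) with 5.94, 6.25 and 7.12 CPM in A498.

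Of 33 tested matrix and basement membrane genes, 17 were called higher and 5 lower in A498 (median 1.10), against 10 higher and 8 lower with the resistant 786-O libraries. COL5A1 (ENSG00000130635.16, chromosome 9, 134641774 to 134844843 on GRCh38, plus strand), the main chain of collagen V, was at 485, 553 and 589 CPM in A498, against 0.354, 0.5202 and 0.639 CPM in 786-O (log2 difference 10.00 ± 0.051 SE, adjusted p = 1.03e-43), and the resistant 786-O libraries held 0.656 CPM. COL6A3 was at 0.9499, 1.35 and 1.89 CPM in A498, against 159, 178 and 212 CPM in 786-O (log2 difference -7.09 ± 0.098 SE, adjusted p = 4.09e-17), although COL6A1 and COL6A2, chains of the same collagen VI, were called higher in A498 at log2 differences of 1.87 and 1.6. Of the laminin chains, LAMA5 was at 421, 553 and 593 CPM in A498, against 67.8, 71.4 and 76.5 CPM in 786-O (log2 difference 2.85 ± 0.071 SE, adjusted p = 5.1e-14). LAMA4 was at 12.6, 13.2 and 14.3 CPM in A498, against 0.0256, 0.0473 and 0.114 CPM in 786-O. NID1, nidogen 1, was at 181, 204 and 216 CPM in A498, against 24.1, 27.5 and 28.9 CPM in 786-O. COL1A1 was at 50.03, 54.8 and 61.5 CPM in A498, against 1.51, 1.88 and 2.53 CPM in 786-O, but COL1A2, its usual partner chain, averaged 0.004 CPM in A498 and 0.003 CPM in 786-O. Of 11 fibroblast markers 6 were tested, with 2 called higher and 2 lower in A498. Their sum ran from 65.0 to 75.2 CPM in A498 and from 13.9 to 17.0 CPM in 786-O, with COL1A1 the main part in A498. LUM, lumican, went the other way, at no more than 0.0704 CPM in A498 and from 4.08 to 5.27 CPM in 786-O. COL3A1 was at 0 CPM in A498 and 0.003 CPM in 786-O, and the part of other cells in the collagen differences was not tested.

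Integrin receptors gave 8 called higher and 3 lower of 19. ITGA4, the alpha 4 subunit that binds fibronectin and VCAM1, was at 48.4, 53.9 and 57.6 CPM in A498, against 0.598, 0.757 and 1.14 CPM in 786-O (log2 difference 6.03 ± 0.050 SE, adjusted p = 1.07e-50). ITGA1, a collagen receptor subunit, was at 33.7, 34.95 and 37.3 CPM in A498, against 3.4, 3.82 and 4.87 CPM in 786-O. ITGB3 was at 338, 366 and 388 CPM in A498, against 63.8, 70.8 and 79.2 CPM in 786-O, with 51.6% of its exonic length shared with a neighbour. All 3 were higher in A498 in every library.

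The receptor kinases that sunitinib inhibits were low in both lines. Of 9 such genes 3 could be tested, 1 called higher and 1 lower (none lower with the resistant 786-O libraries), and CSF1R, the receptor of CSF1, was at 0.0587, 0.153 and 0.261 CPM in A498, against 1.23, 1.59 and 2.13 CPM in 786-O (log2 difference -3.43 ± 0.18 SE, adjusted p = 2.49e-21). CSF1, its ligand, was at 963, 1099 and 1148 CPM in A498, against 266, 282 and 306 CPM in 786-O (log2 difference 1.904 ± 0.022 SE, adjusted p = 6.58e-45). Of the 14 tested ligands, 4 were called higher and 2 lower. IL34, another CSF1R ligand, was at 2.05, 3.05 and 4.74 CPM in A498, against 0.0237, 0.109 and 0.1505 CPM in 786-O. PDGFD was at 2.88, 3.33 and 4.37 CPM in A498, against 0.537, 0.6997 and 0.883 CPM in 786-O. IL34 and PDGFD were thus low in both lines and lower in 786-O. Other receptor kinases gave 13 called higher and 4 lower of 26, against 8 higher and 7 lower with the resistant 786-O libraries. EPHB4, a receptor of ephrin-B2, was at 124, 126 and 132 CPM in A498, against 0.509, 0.769 and 1.34 CPM in 786-O (log2 difference 7.19 ± 0.049 SE, adjusted p = 1.32e-47). MST1R, the receptor RON, was at 15.6, 17.1 and 19.1 CPM in A498, against 0.0511, 0.228 and 0.435 CPM in 786-O. No 786-O library reached the lowest A498 level of either gene. ROR2, a Wnt5a receptor, was at 0, 0.0492 and 0.105 CPM in A498, against 10.3, 11.6 and 12.6 CPM in 786-O. INSR, the insulin receptor, was at 1.79, 1.99 and 3.08 CPM in A498, with a count ratio of 779 (exact 95% interval 139 to 30800). The abundant receptors differed less. MET was at 665, 687 and 718 CPM in A498, against 690.4, 723 and 750.5 CPM in 786-O (log2 difference -0.096 ± 0.018 SE, adjusted p = 5.31e-06). AXL was at 193, 208 and 219.6 CPM in A498, against 479, 493 and 506 CPM in 786-O (log2 difference -1.27 ± 0.020 SE, adjusted p = 9.02e-41). EGFR was at 326, 369.6 and 395 CPM in A498, against 245, 267 and 308 CPM in 786-O (log2 difference 0.404 ± 0.043 SE, adjusted p = 5.27e-07). MET overlapped between the lines, AXL was lower and EGFR higher in A498. With the resistant 786-O libraries in place, MET turned to 0.452 and EGFR to -0.879.

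The interferon response list was the longest and had the most members called. Some lists with few tested genes had shares as high or higher, such as the leukocyte markers with 5 of 5. Of 45 interferon response genes, all tested, 35 were called higher and 1 lower in A498, with a median of 1.67. That is 80% called, against 31.5% of all genes tested. This depended on the 786-O libraries used. With the resistant 786-O libraries, another batch and another cell state, in place of the parental ones, 5 were called higher and 8 lower. MX1 (ENSG00000157601.14, chromosome 21, 41420304 to 41459214 on GRCh38, plus strand), an antiviral GTPase, was at 411, 435 and 576 CPM in A498, against 5.098, 5.89 and 9.96 CPM in 786-O (log2 difference 6.14 ± 0.079 SE, adjusted p = 2.19e-17). OAS2, which makes the activator of RNase L, was at 168, 179 and 258 CPM in A498, against 2.02, 2.98 and 5.52 CPM in 786-O (log2 difference 5.87 ± 0.092 SE, adjusted p = 2.02e-16). IFI27 was at 163, 168 and 211 CPM in A498, against 5.47, 6.78 and 8.78 CPM in 786-O (log2 difference 4.65 ± 0.040 SE, adjusted p = 9.39e-33). These 3 genes did not overlap between the lines, but the list was not even. ISG15, a ubiquitin-like protein and a standard member, was at 63.2, 68.7 and 96.3 CPM in A498, against 64.4, 73.04 and 91.8 CPM in 786-O, where the lines overlapped and the difference did not pass (log2 difference -0.05 ± 0.058 SE, adjusted p = 0.46). ISG15 differed by -2.393 with the resistant 786-O libraries (edgeR, adjusted p = 1.42e-16). BST2, tetherin, was at 146, 149.6 and 170.1 CPM in A498, against 247, 265 and 276 CPM in 786-O (log2 difference -0.81 ± 0.020 SE, adjusted p = 1.46e-33). IFITM1 was at 4.37, 5.66 and 10.3 CPM in A498, against 0.0854, 0.182 and 0.319 CPM in 786-O. IFITM2 was at 0.841, 1.17 and 2.61 CPM in A498, against 18.9, 21.9 and 23.1 CPM in 786-O, but these near copies share exonic sequence and are uncertain. IFITM1 turned to -0.72 with the resistant 786-O libraries in place. In those libraries MX1 averaged 56.9 CPM, OAS2 135 CPM and ISG15 394 CPM. Levels of these genes thus differed widely between the parental and the resistant 786-O libraries. The list of interferon receptors and sensors, which also holds the cytokine gene IFNL1, had 2 of 13 tested genes called higher in A498. That is 15.4%, against 20.9% of all genes tested. TLR3 was at 35.3, 38.1 and 41.4 CPM in A498, against 5.27, 5.99 and 6.88 CPM in 786-O. IFNL1 averaged 0.269 CPM in A498 and 0 in 786-O. The count called was 1 with the resistant 786-O libraries. IFNLR1, an interferon receptor gene outside that list, was lower in A498, at 0.0492 CPM against 5.85 CPM in 786-O over the pooled counts.

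Antigen presentation had 11 of 26 tested genes called higher and none lower, while 9 passed lower. The share called was 42.3%, against 31.5% of all genes tested. With the resistant 786-O libraries in place, 2 were called higher and 9 lower. B2M, the class I light chain, was at 1232, 1294 and 1378 CPM in A498, against 769.9, 802 and 817 CPM in 786-O (log2 difference 0.68 ± 0.019 SE, adjusted p = 8.86e-31). HLA-C was at 699.7, 755 and 832 CPM in A498, against 306, 325 and 347 CPM in 786-O (log2 difference 1.19 ± 0.023 SE, adjusted p = 9.56e-36). Of the class II genes, HLA-DRA had 0 counts in 786-O and 0.841, 1.23 and 2.29 CPM in A498, at least 156-fold higher at a floor of 3 counts over the 9 libraries. HLA-DMA was at 6.78, 7.89 and 10.7 CPM in A498, against 0.304, 0.499 and 0.834 CPM in 786-O. HLA genes belong to a family of near copies, and their counts are uncertain. With the resistant 786-O libraries in place, B2M turned to -0.92, HLA-C to -0.73, HLA-F to -1.997 and HLA-DPA1 to -1.423. Leukocyte markers, 5 of 16 tested and all 5 called higher, summed to between 4.60 and 5.21 CPM in A498 and between 0.71 and 1.23 CPM in 786-O. Their defining gene PTPRC averaged 0.026 CPM in A498 and 0.003 CPM in 786-O, and CD3E was at 0 in both lines. Endothelial markers summed to between 3.52 and 4.70 CPM in A498 and between 0.97 and 1.79 CPM in 786-O, with PECAM1 at 0.144 CPM in A498 and 0.006 CPM in 786-O. The part of other cells in the immune lists was not tested.

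CD274 (ENSG00000120217.14, chromosome 9, 5450503 to 5470566 on GRCh38, plus strand), the gene of PD-L1 to which the antibodies bind, was at 7.68, 7.95 and 9.03 CPM in A498, against 9.18, 10.2 and 12.3 CPM in 786-O (log2 difference -0.36 ± 0.046 SE, adjusted p = 3.26e-09). Every A498 library was below every 786-O library, yet by less than 2-fold, and 64.5% of all genes tested likewise had no overlap. The resistant 786-O libraries averaged 8.92 CPM, and with them in place of the parental 786-O libraries the difference did not pass (-0.08, adjusted p = 0.099). PDCD1LG2, which encodes PD-L2, was at 0.587, 0.704 and 1.41 CPM in A498, against 5.098, 5.898 and 7.94 CPM in 786-O (log2 difference -3.005 ± 0.10 SE, adjusted p = 6.49e-27). NT5E, the adenosine-producing ectonucleotidase CD73, was at 21.6, 24.4 and 28.8 CPM in A498, against 108, 112 and 136 CPM in 786-O (log2 difference -2.28 ± 0.052 SE, adjusted p = 2.42e-15). Both stood lower in every A498 library. VSIR, the checkpoint ligand VISTA, was at 33.9, 37.4 and 42.8 CPM in A498, against 1.199, 1.39 and 1.88 CPM in 786-O (log2 difference 4.64 ± 0.053 SE, adjusted p = 1.09e-45). TNFRSF14, the receptor HVEM, was at 0.176, 0.326 and 0.387 CPM in A498, against 6.11, 6.68 and 8.02 CPM in 786-O, with 13.4% of its exonic length shared with its antisense gene. In all, 7 of 21 tested checkpoint genes were called higher and 3 lower, against 4 higher and 6 lower with the resistant 786-O libraries. There, of the genes called higher between the parental lines, LGALS9 turned to -1.387 and VTCN1 to -0.894.

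Of 30 tested genes of the cytokine and chemokine list, which also holds NF-kappa B genes, 9 were called higher and 5 lower, against 4 higher and 4 lower with the resistant 786-O libraries. CXCL5, which draws neutrophils, was at 0, 0.08803 and 0.196 CPM in A498, against 68.7, 82.7 and 89.3 CPM in 786-O (log2 difference -9.85 ± 0.10 SE, adjusted p = 4.04e-26). CCL2, which draws monocytes, was at 50.1, 55.6 and 68.99 CPM in A498, against 1.55, 2.37 and 2.86 CPM in 786-O (log2 difference 4.70 ± 0.046 SE, adjusted p = 2.26e-46). CCL26, an eotaxin, was at 11.4, 12.3 and 15.7 CPM in A498, against 0, 0.109 and 0.189 CPM in 786-O. CCL5 was at 27.03, 31.7 and 39.8 CPM in A498, against 1.16, 1.45 and 2.01 CPM in 786-O. The resistant 786-O libraries held a mean of 38.1 CPM of it, and with them in place of the parental 786-O libraries the difference turned to -0.17. Complement genes had 10 of 16 called higher and none lower (median 1.58), against 6 higher and 1 lower with the resistant 786-O libraries. C1S, a protease of the first complement component, was at 303, 319 and 362 CPM in A498, against 2.27, 2.696 and 3.596 CPM in 786-O (log2 difference 6.86 ± 0.034 SE, adjusted p = 1.62e-58). C3, the central component, was at 169, 179 and 187 CPM in A498, against 21.2, 24.2 and 25.3 CPM in 786-O (log2 difference 2.898 ± 0.027 SE, adjusted p = 1.22e-48). C1R shares 11.4% of its exonic length with C1RL and was at 62.9, 66.8 and 79.99 CPM in A498, against 0.533, 0.692 and 0.932 CPM in 786-O.

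Drug transporters of the ABC family had 9 of 22 called higher and none lower in A498, 40.9% called against 31.5% of all genes tested. ABCC2, which exports conjugates and is also in the NRF2 list, was at 185, 214 and 224 CPM in A498, against 1.82, 3.097 and 3.74 CPM in 786-O (log2 difference 6.12 ± 0.059 SE, adjusted p = 6.52e-22). ABCC3 was at 273, 305 and 318 CPM in A498, against 52.6, 55.8 and 63.5 CPM in 786-O. ABCG2, a multidrug exporter, was at 19.1, 21.2 and 23.2 CPM in A498, against 2.39, 2.74 and 3.68 CPM in 786-O. The 7 members that passed lower did not reach 2-fold. Against the resistant 786-O libraries, 6 were called higher and 4 lower.

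Among 19 tested tumour suppressors, 3 were called higher and 2 lower, 26.3% called against 31.5% of all genes tested. The 2 called lower became 1 without A498 avelumab replicate 1, with DESeq2 and under other scalings. MTAP, an enzyme of methionine salvage, was at 92.2, 97.3 and 106 CPM in A498, against 42.1, 43.04 and 47.1 CPM in 786-O. CDKN2A and CDKN2B, the neighbours of MTAP, had 0 counts in both lines. Outside the tumour suppressor list, GDF15, a stress cytokine, was at 403, 474 and 512 CPM in A498, against 47.8, 52.6 and 70.9 CPM in 786-O (log2 difference 3.03 ± 0.063 SE, adjusted p = 6.25e-15). CDKN1A, the cell cycle inhibitor p21, was at 294, 318 and 327 CPM in A498, against 258, 272 and 304 CPM in 786-O, with overlap between the lines. Proliferation genes differed little. Of 30, 21 passed lower and 6 higher. CCNE1, cyclin E1, was at 31.2, 32.6 and 34.5 CPM in A498, against 13.01, 13.98 and 14.6 CPM in 786-O. It was the only one called, against 2 higher and 1 lower with the resistant 786-O libraries. MKI67, a marker of cycling cells, was at 187, 252 and 279.7 CPM in A498, against 408, 433 and 543 CPM in 786-O (log2 difference -0.91 ± 0.083 SE, adjusted p = 1.54e-07).

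HOX genes had 8 called higher and 6 lower of 36 (median -0.09), 38.9% called against 31.5% of all genes tested. Among them, HOXC13 was at 4.93, 6.21 and 6.85 CPM in A498, against 0, 0.0256 and 0.0709 CPM in 786-O. HOXA7 was at 22.2, 23.7 and 24.9 CPM in A498, against 1.94, 2.25 and 2.37 CPM in 786-O, with 62.5% of its exonic length shared with an antisense gene. Of the 30 listed cancer testis genes only 5 passed the filter on low counts. TDRD9, a helicase of the germline piRNA pathway, was at 49.6, 50.4 and 52.8 CPM in A498, against 0, 0 and 0.0981 CPM in 786-O (log2 difference 10.57 ± 0.095 SE, adjusted p = 3.15e-47). PRAME was at 135, 144 and 149.6 CPM in A498, against 27.6, 32.9 and 36.2 CPM in 786-O (log2 difference 2.095 ± 0.026 SE, adjusted p = 4.96e-43).

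Genes that differed lay in runs along some chromosomes. Over 13417 autosomal protein coding genes the median log2 difference was 0.01. By chromosome it ran from -0.43 on chromosome 18 to 0.51 on chromosome 17, and library totals in place of TMM factors moved each chromosome's median by 0.03 at most. Among 662 windows of 20 neighbouring tested genes, the 4 lowest medians were all on chromosome 19. The lowest, from ZNF506 to ZNF257 (19785839 to 22091480 on GRCh38), had a median of -3.91, with 17 of 20 genes called lower and none higher. The next were ZNF350 to ZNF320 (51964343 to 52897693) at -2.70, ZNF888 to TFPT (52904417 to 54115675) at -2.37 and EPOR to ZNF136 (11377205 to 12189881) at -2.30. The window from ZNF888 to TFPT was mixed, with 11 genes called lower and 7 higher. The windows ranked 5 to 13 from the lowest all lay on chromosome 1, between 923928 and 32605939, with medians from -1.08 to -0.76. Chromosome 19 also held 2 of the 4 highest windows, PPP6R1 to ZNF865 (55229780 to 55617269) at 1.63 and KDELR1 to PPP1R15A (48382570 to 48876057) at 1.598. The highest of all was on chromosome 5 from PCDHAC1 to PCDHGB5 (140926369 to 141512981) at 2.56, where clustered protocadherin genes share exons and their counts are uncertain.

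**Figure D5:**
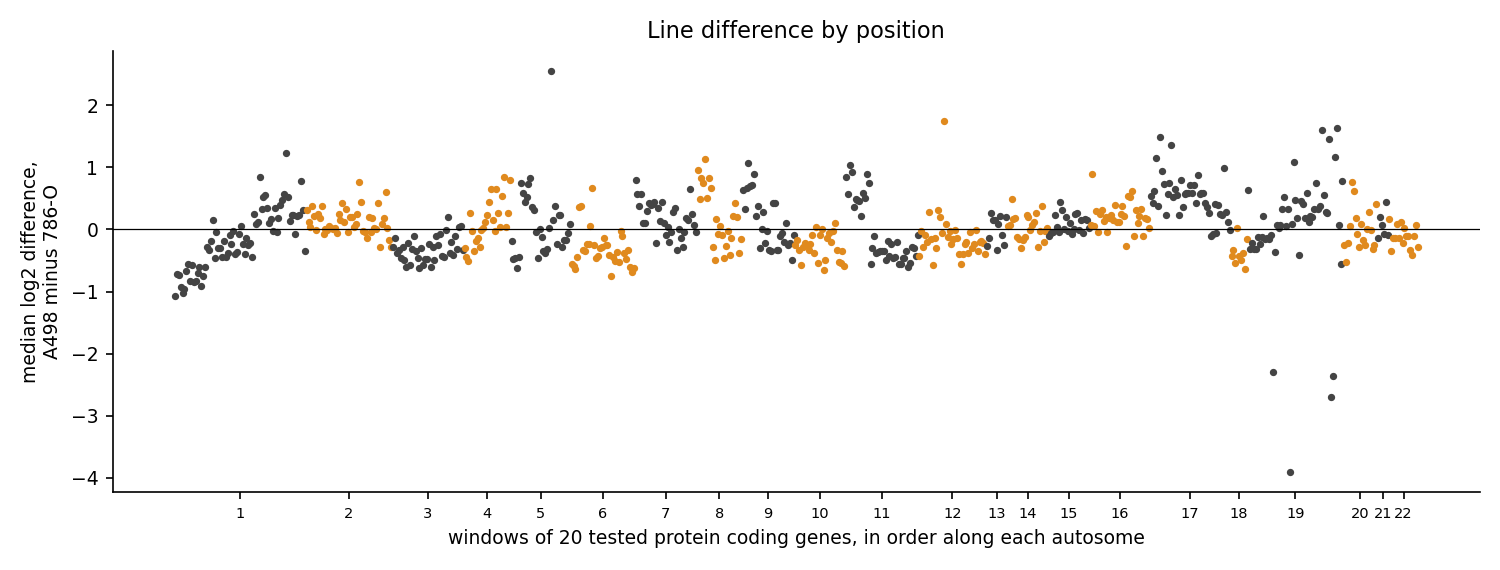
Median log2 difference, A498 minus 786-O, in 662 windows of 20 tested protein coding genes, in order along each autosome, with neighbouring chromosomes in alternating colours. The 4 lowest windows, from -3.91 to -2.30, stand on chromosome 19, and the highest, at 2.56, stands on chromosome 5.

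Zinc finger genes of chromosome 19, transcription factors many of which recruit repressive chromatin, were tested in 222 cases. Of these, 27 were called higher and 92 lower in A498, with a median of -0.50. Over all genes tested, 20.9% were called higher and 10.7% lower. ZFP28 was at 0, 0 and 0.0285 CPM in A498, against 4.84, 6.84 and 7.45 CPM in 786-O, a count ratio of 2000 (exact 95% interval 359 to 79100) for 786-O over A498. ZNF71 was at 0, 0 and 0.0326 CPM in A498, against 8.71, 9.37 and 10.1 CPM in 786-O, a count ratio of 1430 (exact 95% interval 397 to 11800). ZNF69 was at 0, 0 and 0.0285 CPM in A498, against 6.75, 7.04 and 8.03 CPM in 786-O, a count ratio of 1090 (exact 95% interval 301 to 8980). The resistant 786-O libraries held 8.49, 10.2 and 9.28 CPM of these 3 genes. Autosomal genes nearly off in one line, under 0.1 CPM, and on in the other, at 5 CPM or more, numbered 126 for genes off in 786-O and 60 for genes off in A498. Of the 60 genes off in A498, 17 were protein coding zinc finger genes, all on chromosome 19, against 3 of the 126 off in 786-O, none of them on chromosome 19. By comparison, chromosome 19 zinc finger genes were 222 of the 19703 genes tested.

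The difference between the lines was similar in number under each antibody. Matched by antibody, 6237 genes (31.7%) were called under atezolizumab, 6257 (31.8%) under avelumab and 6254 (31.7%) under durvalumab, and 5982 of the 6215 genes called over all antibodies passed under every one. A test with 2 degrees of freedom of whether the line difference depended on the antibody passed for 332 genes (1.69%), and 88 of these were also called between the lines. Only 2 called genes changed sign among the antibodies. The count of 332 changed when single libraries were left out. Each such fit also made 1 group smaller and set the filter on low counts anew. The change is thus not the effect of that library alone. The count was 170 without A498 atezolizumab replicate 1, 169 without A498 atezolizumab replicate 3, 183 without A498 avelumab replicate 2 and 205 without A498 durvalumab replicate 1. It was 200 without 786-O avelumab replicate 2, 206 without 786-O durvalumab replicate 2 and 534 without 786-O durvalumab replicate 1.

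The gene of lowest interaction p was SLC6A6, the taurine transporter. Under atezolizumab it averaged 132 ± 5.47 CPM in A498 and 86.6 ± 1.61 CPM in 786-O (SD, n = 3 each). Under avelumab it averaged 119 ± 4.07 CPM in A498 and 114 ± 5.86 CPM in 786-O, and under durvalumab 123 ± 3.43 CPM in A498 and 110 ± 3.83 CPM in 786-O. The log2 difference was 0.58, 0.04 and 0.14 in that order (interaction adjusted p = 2.44e-08 in the quasi-likelihood test). SPP1, osteopontin, averaged 1929 ± 75.1 CPM in A498 and 413 ± 4.25 CPM in 786-O under atezolizumab. Under avelumab it averaged 1784 ± 92.2 CPM in A498 and 496 ± 14.3 CPM in 786-O, and under durvalumab 1743 ± 53.2 CPM in A498 and 477 ± 14.6 CPM in 786-O (interaction adjusted p = 3.2e-05 in the same test). The line difference of both genes was greatest under atezolizumab. OPN3 and KMO were the other genes chosen by rank; they overlap each other in 55.5% and 28.4% of their exonic length and cannot be told apart by these counts.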

How the data were processed

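The values are raw read counts per gene, deposited by the authors in a single table without normalization. The submitters' processing notes name bcl2fastq 2.19.0, HISAT2 2.1.0, featureCounts 1.6.3 and Trimmomatic 0.36.6, and the genome build GRCh38. Polyadenylated RNA was made into libraries with a stranded kit, per the labels' protocols. The annotation release and whether strand was used in counting are items not given in the sources used here. Of 45478 gene identifiers, 32477 had a symbol in the reference tables and 43799 were in GENCODE release 29, the source of coordinates, and 7493 had 0 counts in the 18 parental libraries. Near copies, and genes with an exonic overlap of 10% or more with another gene on either strand, are given as uncertain.

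In R 4.3.3, edgeR 4.0.16 was fitted to the counts of the 18 libraries in 6 groups, with filterByExpr (count minimum 10, total minimum 15), TMM factors and the robust quasi-likelihood test, set up and tested on simulated data. The line difference is the mean of the 3 A498 group means minus that of the 3 786-O group means, and every adjusted p is from the Benjamini-Hochberg method over all 19703 genes. Standard errors were derived from the F statistic. CPM used raw totals. Count ratios carry exact 95% intervals that cover counting error only, as does the floor of 3 counts. Alternatives were DESeq2 1.42.0, other scalings and filters, thinned counts, all 36 libraries, a replicate block, a test against 2-fold, the resistant 786-O libraries in place of the parental ones, and each library left out in turn. Replicates of a group differed beyond sampling noise, so none was a copy.

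The libraries and the 34 gene lists were chosen with earlier results of these data known. Named genes needed a symbol and an autosome. They were the 12 highest and 12 lowest differences among genes passing under every antibody with at least 5 CPM in the higher line, the 6 highest and 6 lowest differences in mean CPM among genes of at least 4-fold, up to 4 called members of at least 1 CPM per list, 4 genes by interaction p, and HIF1A, EPAS1, VHL, PAX8, CA9 and CD274. All other genes with values of their own, such as HMOX1, ISG15, VEGFA, COL6A3, VIM, KRT19, MET, B2M and MKI67, were chosen after their values were seen. Some genes that this rule names, and a gene list, are not reported here.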

Additional observations from a re-analysis of the deposited data

Results flagged for a closer look

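In 284 tests of whether the highest or lowest of a line's 9 libraries stood apart from the rest for a named gene, 16 did, and chance flags about 1 in 20 such groups. In A498, single high libraries were found for INHBB (156.5 CPM, avelumab replicate 1), MME (7.10 CPM, atezolizumab replicate 3), SCNN1A (12.2 CPM, atezolizumab replicate 3), CCL26 (15.7 CPM, avelumab replicate 1), EPAS1 (150 CPM, avelumab replicate 2), IFITM2 (2.61 CPM, atezolizumab replicate 3) and PDCD1LG2 (1.41 CPM, atezolizumab replicate 1). Single low A498 libraries were found for PLAU (3.36 CPM, avelumab replicate 3) and ABCC2 (184.9 CPM, atezolizumab replicate 2). In 786-O, single high libraries were found for ABCG2 (3.68 CPM, atezolizumab replicate 1), ABCC3 (63.5 CPM, durvalumab replicate 3), LHX1 (26.3 CPM, atezolizumab replicate 3) and MKI67 (543 CPM, durvalumab replicate 3). Single low 786-O libraries were found for THBS1 (501 CPM, avelumab replicate 2), VIM (5819 CPM, durvalumab replicate 3) and NID1 (24.1 CPM, avelumab replicate 1). Each of these 16 genes kept its direction and its side of the threshold when any 1 of the 18 libraries was left out.

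Of the 172 named genes tested, 11 had a line difference that depended on the antibody in edgeR's interaction test, which 1.69% of all genes passed. SLC6A6, OPN3, KMO and SPP1 were named for their interaction p, so these 4 had to pass. The adjusted p was 2.44e-08 for SLC6A6, 4.94e-06 for OPN3, 2.32e-05 for KMO, 3.2e-05 for SPP1, 0.000831 for ENPEP, 0.00584 for JUP and 0.00664 for EPCAM. It was 0.0112 for ALDH1A1, 0.0169 for AK4, 0.0359 for SCD and 0.0417 for PAX2. ALDH1A1 averaged 1596 ± 163 CPM in A498 and 95.9 ± 3.58 CPM in 786-O under atezolizumab, and 1174 ± 71.4 CPM in A498 and 124 ± 2.94 CPM in 786-O under durvalumab (SD, n = 3 each). EPCAM differed by -4.21 under atezolizumab, -2.79 under avelumab and -3.96 under durvalumab on the log2 scale.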

How the results depend on the processing

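Over 28 alternative settings, 4792 of 4810 values of 172 tested named genes kept their direction and their side of the threshold, and none of the 3096 values with a library left out changed. With the resistant 786-O libraries in place of the parental ones, 14 genes turned: ENPEP 0.10, IFITM1 -0.72, HLA-DPA1 -1.42, HLA-F -1.997, LGALS9 -1.39, VTCN1 -0.89, CCL5 -0.17, ACTA2 -0.36, PAX8 0.074, VEGFA 0.26, MET 0.45, EGFR -0.88, B2M -0.92 and HLA-C -0.73 (log2, A498 minus 786-O). In that setting 3490 genes were called higher and 3315 lower in A498, against 4115 and 2100, and batch and cell state both change there, so the cause was not tested.

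The list counts were less stable. Of 1904 counts of list members called higher or lower, 83 moved by over 1.5 times, 31 of 68 with the resistant 786-O libraries, 13 of 68 with the stricter filter and 11 of 68 with no filter. With the resistant 786-O libraries the interferon response list had 5 called higher and 8 lower, against 35 and 1, while the NRF2 targets had 22 and 0, against 25 and 0.

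Counts of calls depended on the filter, which sets how many genes are tested. Among genes of at least 1 CPM in every library of a line, 2564 were called higher and 1389 lower, with 3974 called under atezolizumab, 3975 under avelumab and 3964 under durvalumab. With no filter, 6732 were called higher, and 802 passed the interaction test. Under 0.05 and at least 10 CPM, 44 genes were off in 786-O and 20 in A498. Leaving out 1 library gave 4255 to 4329 called higher, 2133 to 2172 called lower, 17279 to 17432 passing, and 169 to 534 for the interaction. In these fits 6319 to 6440 were called under atezolizumab, 6391 to 6472 under avelumab and 6391 to 6488 under durvalumab. The filter was set anew in each of them, so the genes tested could change too. A test against 2-fold left 3674 higher and 1749 lower.

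Same-numbered replicates did not vary together (correlations of their deviations from -0.02 to 0.05), so the numbers do not pair the libraries. With a replicate block 17183 genes passed, 4117 were called higher and 2104 lower, and 283 passed the interaction test.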
